A study of Homo sapiens with 45 samples.

Results

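Heat shock proteins and cytosolic chaperones were followed across 3 estrogen receptor-positive breast cancer cell lines. The set was 45 genes, taken as every row of the deposited count table whose symbol was on a fixed list, out of 57353 symbols in the table. It held 5 HSP70 proteins (HSPA1A, HSPA1B, HSPA8, HSPA13, HSPA14), 3 HSP110 exchange factors (HSPH1, HSPA4, HSPA4L), 2 cytosolic HSP90 proteins (HSP90AA1, HSP90AB1) and 5 mitochondrial chaperones (HSPD1, HSPE1, HSPA9, TRAP1, DNAJA3). It also held 2 small heat shock proteins (HSPB1, CRYAB), 7 J-domain proteins (DNAJA1, DNAJA2, DNAJB1, DNAJB4, DNAJB6, DNAJC2, DNAJC7), the 8 subunits of the TRiC chaperonin (TCP1, CCT2, CCT3, CCT4, CCT5, CCT6A, CCT7, CCT8), 8 HSP90 cochaperones (FKBP4, FKBP5, PTGES3, STIP1, AHSA1, CDC37, ST13, CHORDC1), 3 BAG and ubiquitin ligase genes (BAG2, BAG3, STUB1) and the heat shock factors HSF1 and HSF2. All were found in GENCODE release 29 on GRCh38.

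The lines were MDA-MB-134-VI (called MM134 here) and MDA-MB-330 (MM330), from invasive lobular carcinoma, and HCC1428, from invasive ductal carcinoma. Every culture was kept in charcoal-stripped serum for 3 days, transfected with an siRNA, given ethanol vehicle or 100 pM estradiol (E2) 24 hours later, and collected for poly(A) RNA after 24 hours more. Each line had 5 groups of 3 libraries: non-targeting siRNA without E2 (siNT), non-targeting siRNA with E2 (siNT_E2), and siRNA against ESR1 (siER), FOXA1 (siFOXA1) or MDC1 (siMDC1), each with E2. No knockdown group without E2 was analysed here. Hormone deprivation and transfection were shared by all groups and E2 by all knockdown groups. ESR1 encodes the estrogen receptor, FOXA1 a pioneer transcription factor that opens chromatin for it, and MDC1 a mediator of the DNA damage checkpoint. Lobular carcinoma was represented by 2 lines and ductal carcinoma by 1, so line and histology cannot be told apart. The labels do not say whether a group's 3 libraries were grown as separate cultures, and p-values measure the spread between these libraries.

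Molecular chaperones bind proteins that are not yet folded or have lost their fold. HSP70 takes up short hydrophobic stretches with the help of J-domain proteins, releases them through exchange factors such as HSP110 and the BAG proteins, and passes some clients on to HSP90. Unliganded steroid receptors, the estrogen receptor among them, are HSP90 clients. STIP1 and ST13 bridge HSP70 and HSP90, CDC37 brings in kinases, AHSA1 and CHORDC1 act on the HSP90 cycle, PTGES3 (p23) holds the closed complex, and FKBP4 (FKBP52) and FKBP5 (FKBP51) are competing immunophilins with opposite effects on several steroid receptors. TRiC folds actin and tubulin. HSF1 drives many of these genes through heat shock elements, which are inverted repeats of the 5-base unit GAA with any 2 bases.

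Sequence upstream of the start sites is shown first, since most of these genes rose with E2 in MM134 and HCC1428, though few did in MM330. RefSeq windows of 250 bases before a start site (GRCh38.p14) were used for 38 of the 45 genes. None was used for CCT6A, CRYAB, FKBP4, HSF1, HSPA14, ST13 and STUB1. HSF1 was left out of the member windows before they were counted, so whether it had an entry is not shown. The set of all windows was not cut in the same way. Both strands were searched for 3 adjoining heat shock units (GAANNTTCNNGAA or TTCNNGAANNTTC), 2 units (GAANNTTC or TTCNNGAA, contained in the 3-unit form), the palindromic estrogen response element GGTCANNNTGACC, and its 5-base arm GGTCA, contained in the palindrome. The 3-unit element lay in 6 genes' windows, or 11.1% of the 54 member windows, against 0.441% of all 35116 windows. The 2-unit form lay in 16 genes' windows, 29.6% of member windows against 11.6% of all. The full estrogen response element was in none of the member windows and in 0.0399% of all windows, and the arm GGTCA was in 18.5% of member windows and 32.6% of all.

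The sites below are printed 5′ to 3′ on the gene's strand with the matched units in capitals. The first 8 sites are all the 3-unit matches and show the element in the genes that hold it. These genes, apart from HSPD1, were picked after the search. The HSPD1, HSP90AA1 and HSP90AB1 sites lay downstream of the gene's other RefSeq starts, whose own windows held no match of either form. The DNAJB1 site (1 of 2 matches) and the HSPB1 site hold the 2-unit form. That DNAJB1 site also lay downstream of another RefSeq start of the gene. HSPD1, HSPE1, DNAJB1, HSPH1, HSPB1 and FKBP4 were chosen before the search. Of these, HSPE1 and HSPH1 had neither form in their windows, and FKBP4 had no window.
HSPD1, chr2:197500062-197500090, minus strand: gcattTTCTGGAAAGTTCTGGAAccgagc
HSP90AA1, chr14:102087112-102087140, minus strand: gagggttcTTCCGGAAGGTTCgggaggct
HSP90AB1, chr6:44247770-44247798, plus strand: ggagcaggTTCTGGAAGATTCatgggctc
HSP90AB1, chr6:44247823-44247851, plus strand: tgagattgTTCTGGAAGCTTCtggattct
HSPA8, chr11:123062171-123062199, minus strand: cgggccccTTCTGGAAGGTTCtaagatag
HSPA8, chr11:123062346-123062374, minus strand: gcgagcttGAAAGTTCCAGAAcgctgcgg
CHORDC1, chr11:90223084-90223112, minus strand: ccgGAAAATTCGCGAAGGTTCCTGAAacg
DNAJB6, chr7:157336865-157336893, plus strand: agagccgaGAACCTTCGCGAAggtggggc
DNAJB1, chr19:14518456-14518485, minus strand: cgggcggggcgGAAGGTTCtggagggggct
HSPB1, chr7:76302480-76302509, plus strand: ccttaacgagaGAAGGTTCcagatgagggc

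The HSPA8 elements ended 43 and 218 bases before its start site and the HSP90AA1 element 76 bases before the start whose window held it. HSPD1 and HSPE1 encode the mitochondrial HSP60 and its HSP10 lid and are transcribed away from each other on chromosome 2, with RefSeq starts 105 bases apart, or 539 bases for the second HSPD1 start. The HSPD1 element lay before the second HSPD1 start and outside the 105 bases between the first start and that of HSPE1. A match is a run of letters and was not tested for binding.

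Library totals ran from 21.0 to 36.7 M counts (M, mega). Processed pseudogenes, intronless copies that can take reads from their parent genes, held 0.386 to 0.554% of the counts in 11 libraries and 0.162 to 0.208% in the other 34 (low-pseudogene libraries), with no library between. In HCC1428 only 1 siNT and 1 siER_E2 library were low-pseudogene libraries. This split ran across groups, with at most 2 of the higher libraries in a group, and 38 of the 357 member calls in the 12 main comparisons ended when the low-pseudogene libraries were fitted alone, with 6, 10 and 6 of them for E2, siER and siMDC1 in MM330. All 3 siRNAs lowered their targets by the log2 fold change against siNT_E2: FOXA1 fell by 1.97 (MM134), 1.86 (MM330) and 1.64 (HCC1428) and MDC1 by 2.13, 2.30 and 1.94. Levels are given in CPM, counts scaled to a library total of 1 M. ESR1 stood at 582, 570 and 568 CPM with siNT_E2 and 68.9, 66.4 and 62.3 with siER in MM134, at 267, 273 and 285 against 25.7, 18.2 and 20.6 in MM330, and at 405, 419 and 416 against 203, 201 and 215 in HCC1428, so more of it was left in HCC1428. ESR1 also fell in MM134 with siFOXA1 (by 2.29) and siMDC1 (by 2.16). With siMDC1 it was lower in MM330 and HCC1428 as well, by less, as given below. Of the luminal markers KRT8, KRT18, KRT19, EPCAM and GATA3 the lowest was EPCAM in HCC1428, at 118 to 162 CPM; the leukocyte gene PTPRC was at 0.112 CPM or less, and the endothelial gene CDH5 was at 0.

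Without hormone, the same few chaperones led in each line, on a scale of CPM per kilobase of exon with 1 normalization over all 45 libraries. HSP90AB1, HSPB1 and HSP90AA1 took the first 3 places in MM134, MM330 and HCC1428, in different orders. HSP90AA1, the inducible HSP90, was at 1640 ± 80.0 (SD, n = 3) in MM330, 405 ± 11.4 in MM134 and 298 ± 8.91 in HCC1428. The constitutive HSP90AB1 was more even, at 808 ± 35.5, 742 ± 18 and 523 ± 14.6 in the same order. HSPB1, the most abundant small heat shock protein here, was at 1046 ± 33.0 in HCC1428 and 1001 ± 55.4 in MM330, 2 means that lay within their spread, and at 428 ± 4.59 in MM134. FKBP5, BAG2, HSPA4L or DNAJB4, and CRYAB made up the bottom of the order, with CRYAB at 0.612 ± 0.105 in HCC1428 and below 0.03 in both lobular lines.

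**Figure D1:**
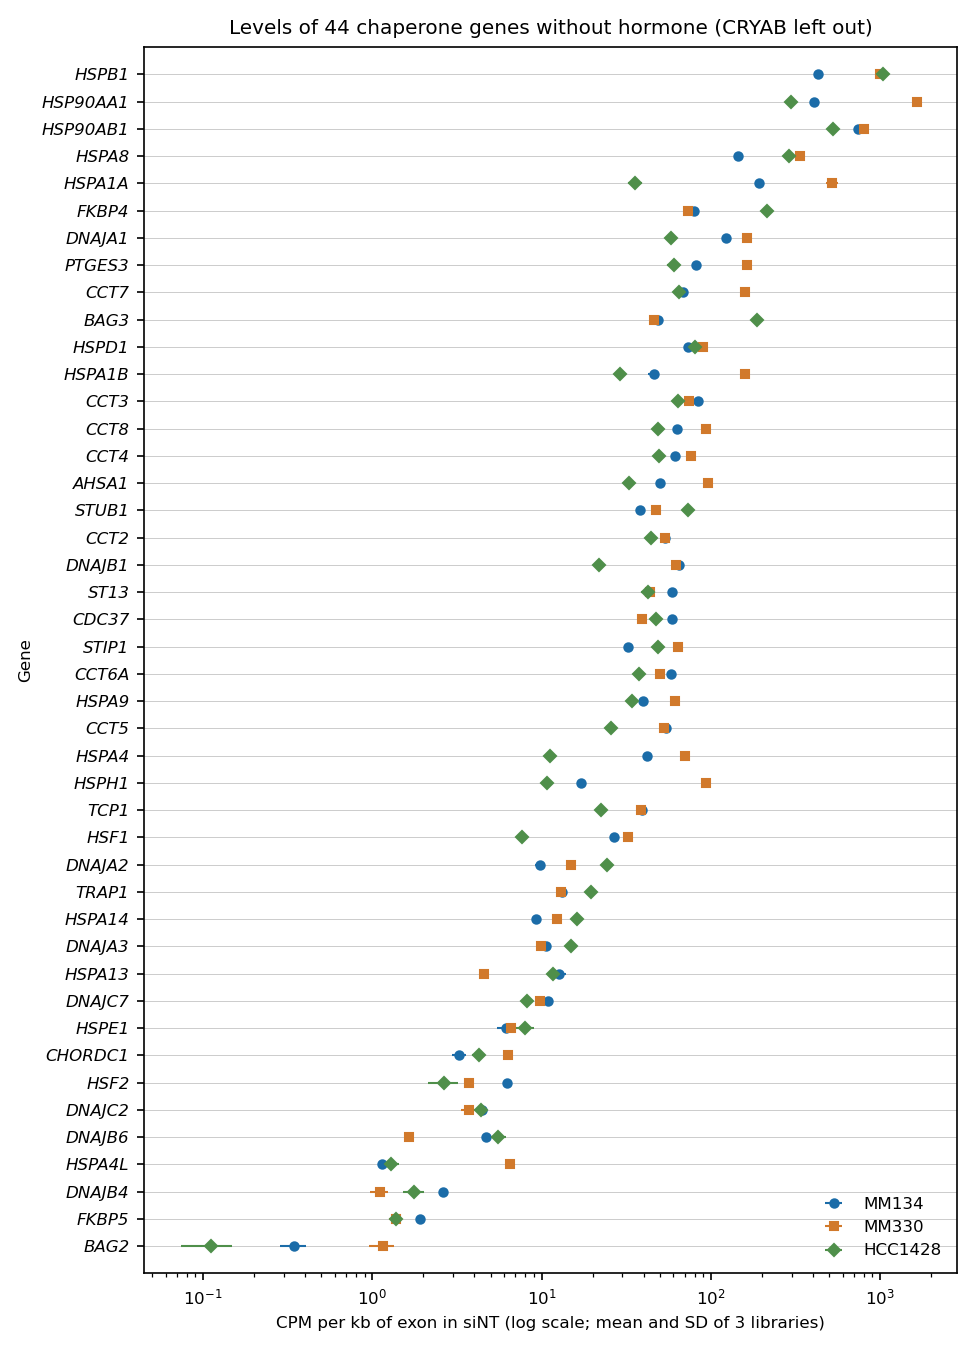
Levels of 44 chaperone genes in the siNT libraries, in CPM per kilobase of exon on a log axis, with points at the mean and bars for the SD of 3 libraries in each line; CRYAB is left out. HSP90AA1 reaches 1640 in MM330 and 298 in HCC1428, and HSPA1A spreads further between lines, from 520 to 35.8.

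HSPA1A, HSPA1B, HSPH1 and HSP90AA1 were higher in MM330 than in HCC1428, and FKBP4 and BAG3 were higher in HCC1428 than in the other two lines. HSPA1A, the classical stress-induced HSP70, was at 520 ± 40.0 CPM per kilobase in MM330, 192 ± 8.04 in MM134 and 35.8 ± 3.55 in HCC1428, a difference of 3.86 on the log2 scale between MM330 and HCC1428. The HSP110 gene HSPH1 was 3.13 log2 units higher in MM330 than in HCC1428 (93.7 ± 3.19 against 10.7 ± 0.113) and HSP90AA1 2.46 higher. In the other direction, FKBP4 was at 214 ± 6.58 in HCC1428, 78.9 ± 4.95 in MM134 and 73.2 ± 4.22 in MM330, which put it 1.44 and 1.55 log2 units higher in HCC1428. BAG3, the HSP70 exchange factor that links to autophagy, was also highest in HCC1428, at 188 ± 6.14 against 48.8 ± 0.717 in MM134 and 46.0 ± 2.08 in MM330, and the last 2 were not called different. The heat shock factor HSF1 was at 32.4 ± 1.10 in MM330, 26.7 ± 1.09 in MM134 and 7.70 ± 0.492 in HCC1428. In the siNT libraries 28 members were called higher and 16 lower in MM134 than in HCC1428 (75.6% of all genes called, 35.7% higher and 39.9% lower), 12 and 24 against MM330 (72.4%, 35.5% and 36.9%), and 28 and 14 in MM330 against HCC1428 (73.0%, 35.2% and 37.7%). Called means an adjusted p below 0.05 in edgeR's quasi-likelihood test with Benjamini-Hochberg adjustment over all genes tested. Most genes differed between the lines, so these counts alone do not set the members apart.

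E2 raised most chaperone genes in MM134 and HCC1428 and few in MM330. With E2, 41 of the 44 tested members rose and 1 fell in MM134 (CRYAB did not pass the filter on low counts there), where 54.4% of all genes were called, 27.2% in each direction. In HCC1428, 35 of 45 rose and none fell, against 54.8% of all genes called and 29.1% called higher. In MM330, 7 rose and 7 fell, against 26.3% of all genes called, 13.7% higher and 12.6% lower. The median log2 fold change over the tested members was 0.56 in MM134, 0.44 in HCC1428 and -0.03 in MM330. The difference between the lines' E2 effects was called for 39 members in MM134 against MM330, with the effect higher in MM134 each time (26.2% of all genes called, 13.9% higher), and for 33 in MM330 against HCC1428, 32 of them lower in MM330 (28.3%, 16.5% lower and 11.8% higher). MM134 against HCC1428 gave 19 higher and 1 lower (26.5%, 12.2% and 14.3%). In RNA from whole cultures, a change in every cell and a change in part of the cells cannot be told apart. Of the 14 calls in MM330, 7 were ended by at least 1 alternative or left-out library: HSPA1A, HSPA4, HSPA8, HSP90AB1, CCT3, HSPA14 and TRAP1.

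The sum of the members as a share of all counts moved the same way. It rose from 1.38 ± 0.028% (SD, n = 3) without E2 to 2.02 ± 0.005% with E2 in MM134 and from 1.19 ± 0.021% to 1.75 ± 0.041% in HCC1428, while MM330 stood at 2.26 ± 0.076% and 2.32 ± 0.028%. Every hormone-free MM330 library lay above all libraries of the other lines. In HCC1428 the share of mitochondrial transcripts was 17.0 ± 1.45% without E2 and 12.6 ± 1.49% with E2, and its part in the members' share was not tested. In MM134 the mitochondrial share kept within 8.64 to 10.03% over all 15 libraries.

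**Figure D2:**
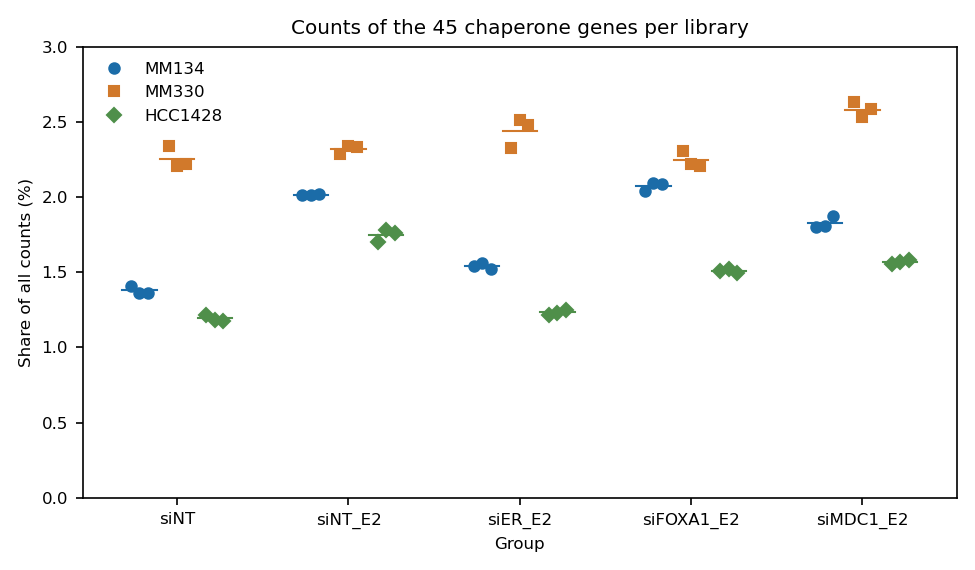
Share of all counts (percent, linear axis from 0) that fell on the 45 chaperone genes, by group and line, with 1 point per library and bars at the group means. In MM134 and HCC1428 the siNT_E2 libraries lie above both siNT and siER_E2, while the MM330 group means lie between 2.25 and 2.58%.

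**Figure D3:**
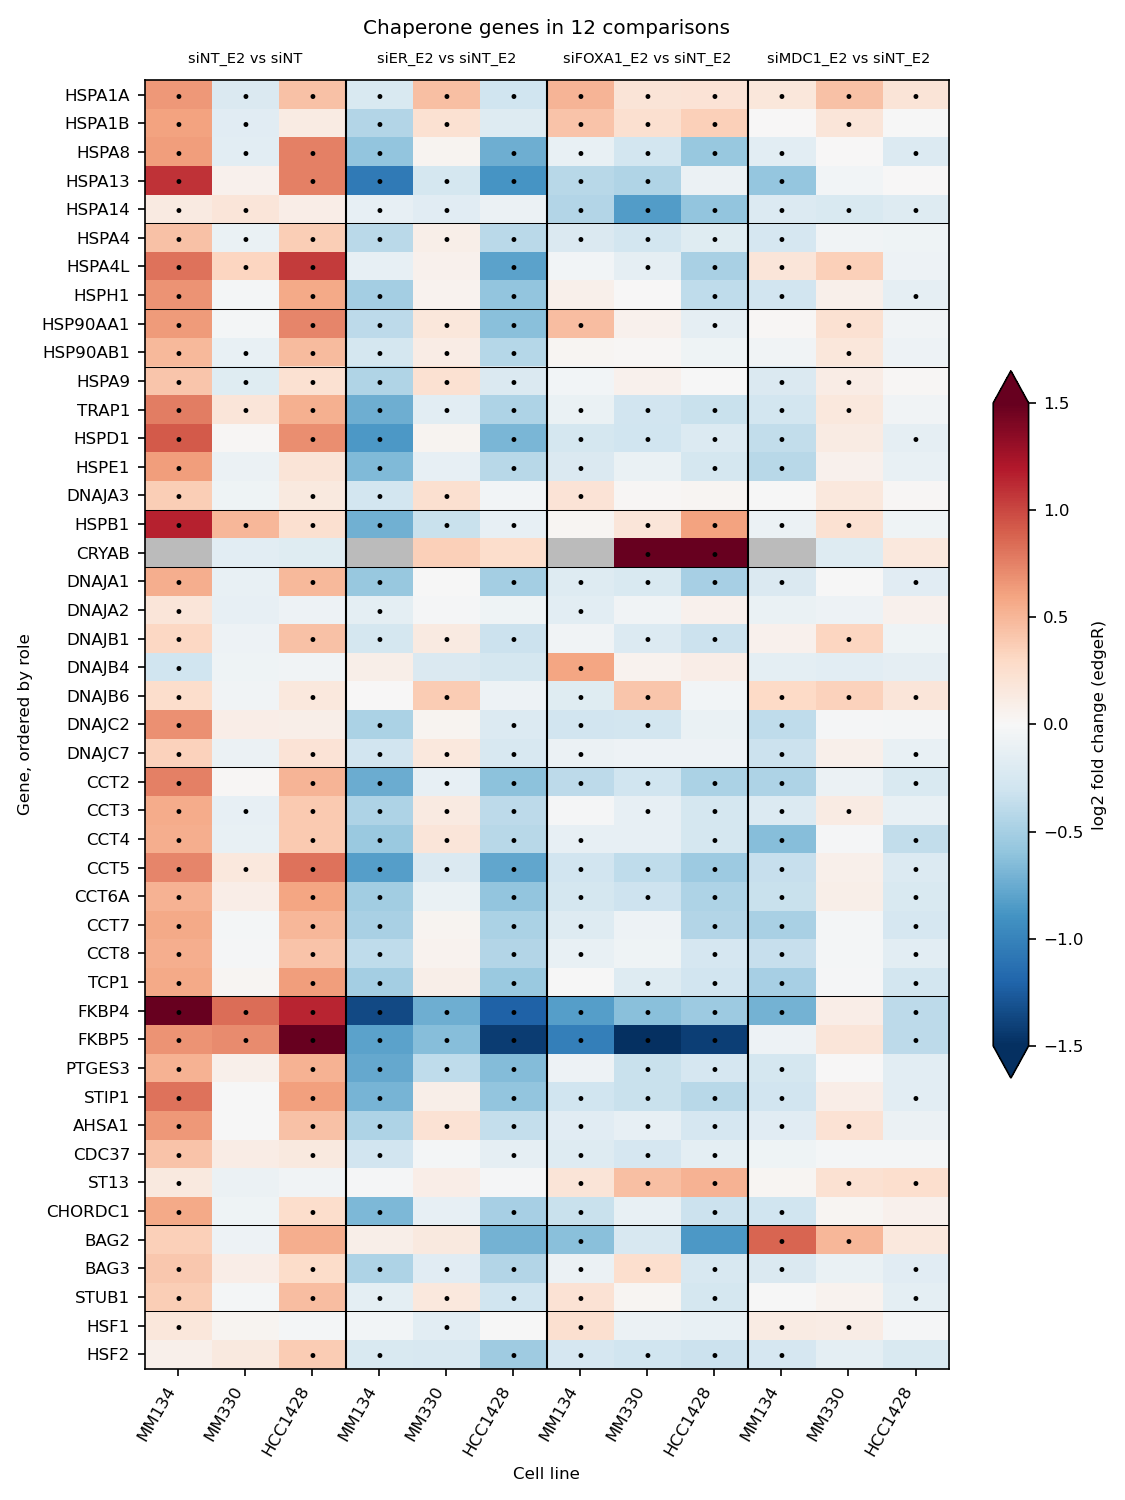
Log2 fold changes of the members in the 12 main comparisons, arranged by role and line, on a colour scale centred on 0. The E2 columns of MM134 and HCC1428 are nearly all positive and their siER columns negative, and the MM330 columns are pale apart from FKBP4, FKBP5 and a few others.

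Of the HSP90 cochaperones, the immunophilins FKBP4 and FKBP5 rose with E2 in all 3 lines. FKBP4, on chromosome 12 from 2794953 to 2805423, stood at 475, 434 and 422 CPM without E2 and 1395, 1408 and 1395 with E2 in MM134. Its groups did not overlap in any line: HCC1428 went from 1094, 1069 and 1022 to 2248, 2442 and 2355, and MM330 from 381, 354 and 353 to 632, 656 and 653. The log2 fold change was 1.66 ± 0.035 (SE; 3.15-fold; edgeR adjusted p = 6.23e-20) in MM134, 1.15 (adjusted p = 5.05e-15) in HCC1428 and 0.83 (adjusted p = 2e-10) in MM330. The difference between lines was itself called, at 0.54 for MM134 against HCC1428 and 0.85 for MM134 against MM330. FKBP4 was the member with the largest rise in both lobular lines.

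FKBP5, on chromosome 6 from 35573585 to 35728583 and also a textbook target of the glucocorticoid receptor, rose furthest in HCC1428. It was at 13.8, 13.4 and 14.8 CPM without E2 and 62.3, 65.5 and 64.2 with E2 in HCC1428, 21.7, 23.1 and 21.1 against 36.0, 34.5 and 35.1 in MM134, and 15.1, 13.1 and 13.8 against 24.0, 22.1 and 22.8 in MM330. The E2 libraries lay above all hormone-free ones each time. The log2 fold change was 2.19 in HCC1428 (4.58-fold, edgeR adjusted p = 1.67e-16), 0.68 in MM134 and 0.71 in MM330, and the difference from HCC1428 was called for MM134 (-1.49) and MM330 (-1.48). The glucocorticoid receptor gene NR3C1 fell with E2 in all 3 lines, by 0.86, 0.51 and 0.80 in MM134, MM330 and HCC1428.

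The other 6 cochaperones rose in MM134, and 5 of them, all but ST13, rose in HCC1428; none was called in MM330. PTGES3 went from 312, 297 and 299 to 445, 429 and 429 CPM in MM134 and from 193, 184 and 215 to 281, 268 and 301 in HCC1428, a log2 fold change of 0.52 in both. STIP1 rose by 0.81 in MM134 and 0.61 in HCC1428, AHSA1 by 0.65 and 0.44, and CHORDC1 by 0.57 and 0.27. The CHORDC1 call in HCC1428 was lost in the low-pseudogene libraries, where the log2 fold change was 0.08 and 1 siNT library was left. CDC37 rose by 0.43 in MM134 and by 0.15 in HCC1428, where its groups overlapped and the edgeR adjusted p was 0.146 without siNT_E2 replicate 3. In the low-pseudogene libraries its log2 fold change in HCC1428 was 0.015, again with 1 siNT library. ST13 rose by only 0.14 in MM134, and leaving out siNT_E2 replicate 1 (adjusted p = 0.0691) or siNT replicate 2 (0.0663) or 3 (0.0541) ended that call.

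**Figure D4:**
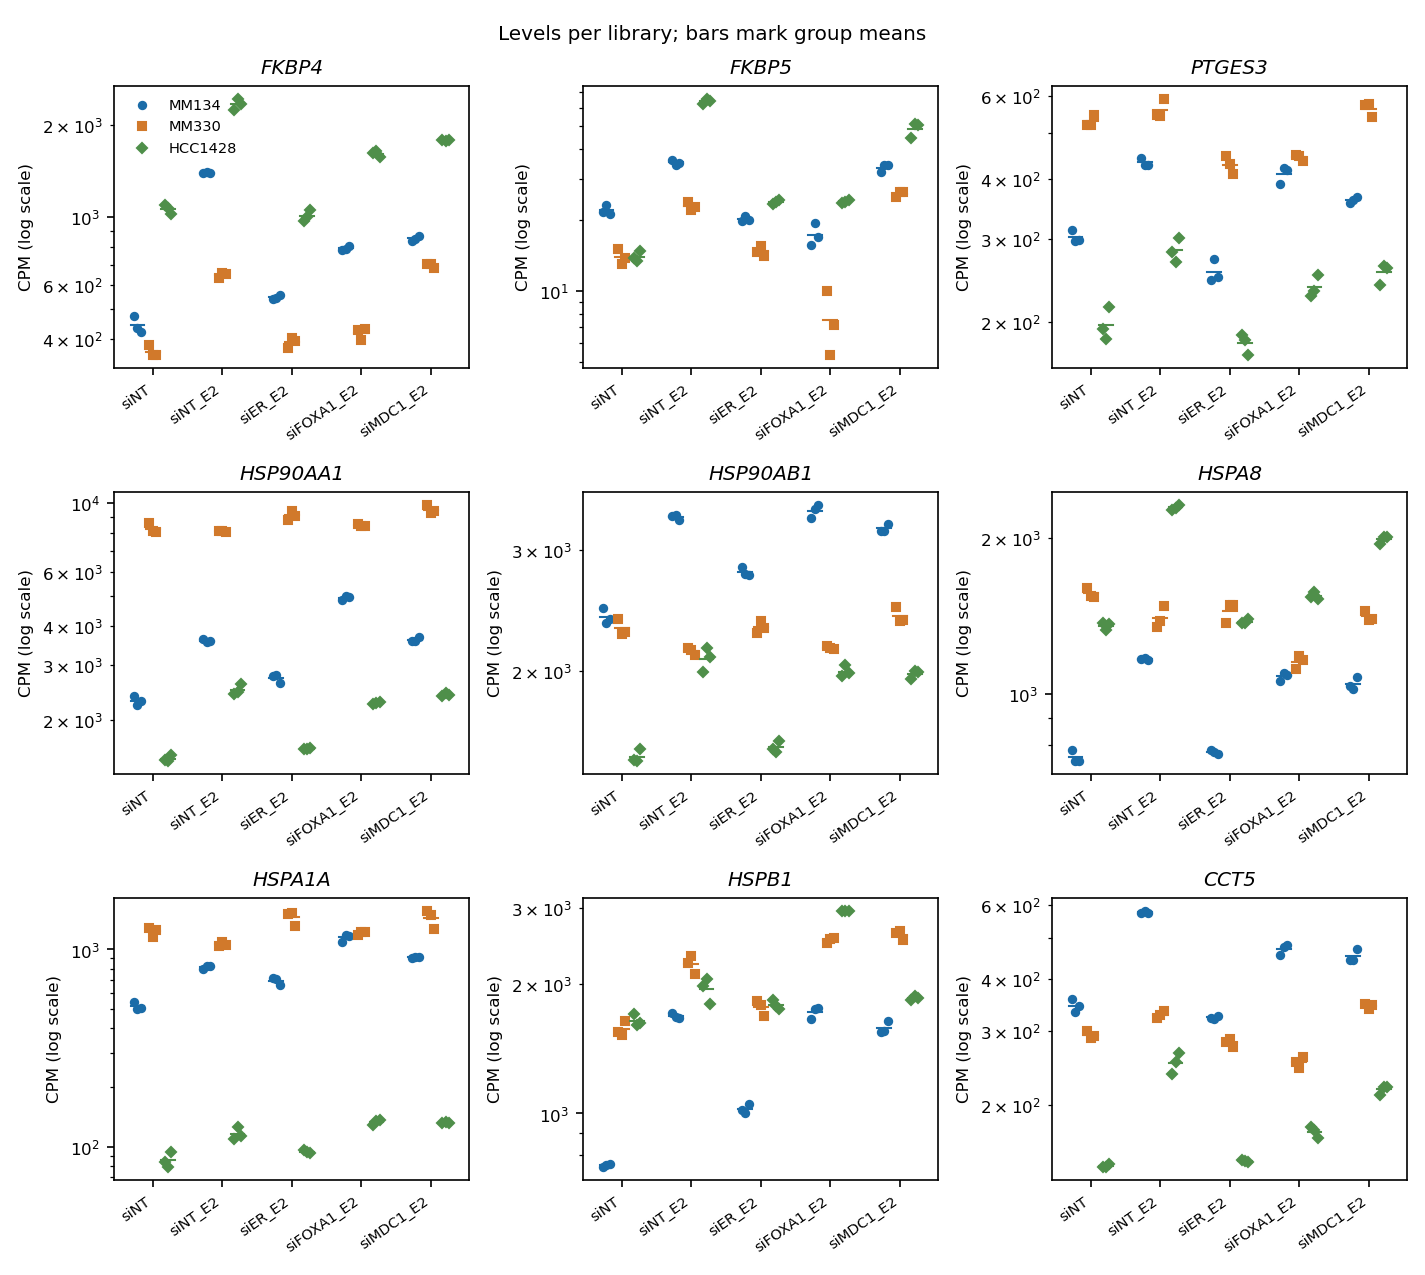
CPM (log axis) of FKBP4, FKBP5, PTGES3, HSP90AA1, HSP90AB1, HSPA8, HSPA1A, HSPB1 and CCT5 in every library, by group within each line, with bars at the group means. FKBP4 rises from 422 to 475 without E2 to 1395 or more with E2 in MM134, and HSP90AA1 in MM330 stays between 8040 and 9833 in all groups.

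Both cytosolic HSP90 genes rose with E2 in MM134 and HCC1428. HSP90AA1 stood at 2386, 2242 and 2299 CPM without E2 and 3636, 3575 and 3578 with it in MM134, and at 1485, 1474 and 1543 against 2419, 2466 and 2605 in HCC1428. These groups were apart, with log2 fold changes of 0.64 and 0.73. In MM330 the values were 8583, 8107 and 8040 against 8084, 8125 and 8040, which overlapped (log2 fold change -0.03, not called). HSP90AB1 rose by 0.49 and 0.48 in MM134 and HCC1428 and fell by 0.11 in MM330, a call that ended without siNT replicate 1 (edgeR adjusted p = 0.0665) and in the low-pseudogene libraries (0.0507).

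All 5 HSP70 genes and all 3 HSP110 genes rose in MM134, and 3 of each in HCC1428. The constitutive HSPA8 went from 783, 744 and 745 to 1168, 1176 and 1163 CPM in MM134 (log2 fold change 0.63) and from 1373, 1331 and 1362 to 2263, 2283 and 2311 in HCC1428 (0.75). In MM330 it lay at 1601, 1547 and 1538 without E2 and 1348, 1386 and 1476 with it, so every E2 library was lower (-0.15); the call was lost in the low-pseudogene libraries (edgeR adjusted p = 0.103). HSPA13, a microsomal HSP70, went from 63.7, 56.5 and 53.6 to 124, 126 and 118 CPM in MM134 (2.12-fold), from 44.3, 48.4 and 47.3 to 81.6, 72.9 and 82.2 in HCC1428, and was at 18.5, 17.9 and 18.6 against 18, 18.4 and 21.2 in MM330, where it was not called. HSPA1A rose by 0.65 in MM134 (542, 502 and 505 to 797, 820 and 822 CPM) and by 0.44 in HCC1428 (83.2, 78.5 and 94.1 to 109, 126 and 113). In MM330 it fell by 0.22 (1292, 1156 and 1260 to 1042, 1094 and 1054), and that call ended without siNT replicate 1 (adjusted p = 0.0989) or 3 (0.0796) or siNT_E2 replicate 1 (0.0751) or 3 (0.0698). HSPA4L rose in all 3 lines, by 0.82 in MM134, 0.32 in MM330 and 1.05 in HCC1428.

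Of the 5 mitochondrial chaperones, 5 rose in MM134 and 4 in HCC1428, while in MM330 1 rose and 1 fell; the small heat shock protein HSPB1 rose in all 3 lines. HSPD1 went from 347, 325 and 343 to 642, 645 and 640 CPM in MM134 (1.90-fold) and from 323, 315 and 352 to 510, 528 and 564 in HCC1428 (1.62-fold), and stood at 379, 360 and 358 against 366, 361 and 383 in MM330, where it was not called. TRAP1, the mitochondrial HSP90, rose in all 3 lines, by 0.76 in MM134, 0.53 in HCC1428 and 0.18 in MM330; the last call ended without siNT replicate 2 (edgeR adjusted p = 0.0521) or 3 (0.0511) or siNT_E2 replicate 2 (0.0803), and in the low-pseudogene libraries (0.0925). The DNAJA3 call in HCC1428 also ended in those libraries, with 1 siNT library left and a log2 fold change of 0.126. HSPB1, a long-known estrogen-induced gene, stood at 750, 760 and 764 CPM without E2 and 1709, 1678 and 1662 with it in MM134. Its increase was smaller in MM330, from 1546, 1517 and 1637 to 2229, 2322 and 2108, and in HCC1428, from 1697, 1600 and 1623 to 1973, 2054 and 1797. The log2 fold changes were 1.15, 0.50 and 0.24, and the difference of 0.93 between MM134 and HCC1428 was called (adjusted p = 3.78e-15).

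All 8 TRiC subunits rose in MM134 and in HCC1428, with medians of 0.56 and 0.50, and their median in MM330 was -0.00. CCT5 was the 1 subunit that rose in every line: it went from 357, 334 and 344 to 572, 580 and 574 CPM in MM134, from 143, 143 and 145 to 238, 253 and 267 in HCC1428, and from 301, 290 and 292 to 323, 328 and 334 in MM330. All E2 libraries were above all hormone-free ones, with log2 fold changes of 0.74, 0.82 and 0.16. Reads of CCT5 may be shared with a gene on the other strand, which overlapped 30.1% of its exons. Of the J-domain proteins, 6 of 7 rose in MM134 and 4 in HCC1428. DNAJB4 was the 1 member that fell in MM134, from 10.6, 11.3 and 10.4 to 9.28, 8.71 and 8.09 CPM (log2 fold change -0.30). HSF1 rose by 0.17 in MM134 and was not called in MM330 or HCC1428.

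The 6 members that held the 3-unit heat shock element, printed above, rose with E2 in MM134, where 41 of all 44 tested members did: HSPD1 by 0.92, HSP90AA1 by 0.64, HSPA8 by 0.63, CHORDC1 by 0.57, HSP90AB1 by 0.49 and DNAJB6 by 0.27. All 6 were called higher in HCC1428 too, as were 35 of all 45 members, with DNAJB6 at 0.16. These counts do not set the genes with the element apart from the other members. The DNAJB6 call in HCC1428 ended without siNT replicate 1 (edgeR adjusted p = 0.0828) or 2 (0.258) or siNT_E2 replicate 3 (0.237) or 4 (0.292). It also ended in the low-pseudogene libraries, with 1 siNT library left and a log2 fold change of 0.01. None of the 6 was called higher in MM330, and HSP90AB1 and HSPA8 were called lower there.

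Knockdown of ESR1 in the presence of E2 lowered most members in MM134 and HCC1428. Against siNT_E2, no member rose and 38 of 44 fell in MM134 (57.2% of all genes called, 27.9% lower), and none rose and 35 of 45 fell in HCC1428 (51.2% called, 28.7% lower). In MM330, 14 rose and 11 fell (32.5% of all genes called, 15.1% higher and 17.4% lower). The medians were -0.46, -0.43 and 0.05. In HCC1428 the siNT_E2 libraries, the reference here, had a mitochondrial share of 12.6%, against 16.5% with siER, 17.3% with siFOXA1 and 15.4% with siMDC1, and its part in the knockdown values of that line was not tested. Since siNT_E2 is the reference here and the treated group in the E2 comparison, opposite signs share those libraries. The difference in siER effect was called lower in MM134 than in MM330 for 35 members and higher for none (25.4% of all genes called, 12.9% lower), and higher in MM330 than in HCC1428 for 33 and lower for 2 (25.3%, 13.0% and 12.3%). MM134 against HCC1428 gave 3 higher and 12 lower (24.5%, 12.4% and 12.1%).

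FKBP4 fell to 540, 545 and 557 CPM with siER in MM134, 373, 403 and 394 in MM330 and 975, 1002 and 1055 in HCC1428. All 9 libraries lay below all siNT_E2 libraries of their line, and the log2 fold changes were -1.35 (edgeR adjusted p = 1.48e-18), -0.73 and -1.22. FKBP5 fell to 19.9, 20.8 and 20.0 CPM in MM134, 14.6, 15.5 and 14 in MM330, and 23.5, 23.9 and 24.4 in HCC1428, with log2 fold changes of -0.80, -0.64 and -1.42. PTGES3 was the only other cochaperone that fell in all 3 lines, by 0.77, 0.38 and 0.65; its siER libraries stood at 245, 271 and 249 CPM in MM134, 449, 431 and 410 in MM330 and 188, 184 and 170 in HCC1428. The MM134 and MM330 values lay below the siNT libraries as well, so that siER against siNT gave -0.25 and -0.30 there, both called.

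HSPA13 fell with siER to 58.3, 62.0 and 56.3 CPM in MM134 and 44.5, 41.6 and 42.2 in HCC1428, log2 fold changes of -1.06 and -0.89. HSPD1 fell by 0.86 in MM134 and 0.69 in HCC1428, and the log2 change was 0.05 in MM330, where it was not called. CCT5 fell by 0.83, 0.22 and 0.78 in MM134, MM330 and HCC1428, and all 8 TRiC subunits fell in MM134 and HCC1428 (median -0.51 in each). HSPB1 fell by 0.72 in MM134 and 0.33 in MM330. Its siER libraries in HCC1428, at 1828, 1774 and 1744 CPM, overlapped siNT_E2 (log2 fold change -0.12). That call ended without siNT_E2 replicate 3, at -0.04 (edgeR adjusted p = 0.413), or siER_E2 replicate 3 (0.0567). It also ended in the low-pseudogene libraries, with 1 siER_E2 library left and a log2 fold change of -0.03.

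In MM330 siER raised several members that it lowered in the other lines. HSPA1A rose from 1042, 1094 and 1054 to 1522, 1523 and 1323 CPM (log2 fold change 0.45, edgeR adjusted p = 5.37e-05), while it fell by 0.23 in MM134 and 0.30 in HCC1428. HSP90AA1 went from 8084, 8125 and 8040 to 8797, 9421 and 9060 CPM (0.17) and fell by 0.40 and 0.63 in MM134 and HCC1428. AHSA1, which stimulates the HSP90 ATPase, rose by 0.22 in MM330 and fell by 0.46 and 0.36. In all, 13 members were called in both directions across the lines with siER. DNAJB6 rose in MM330 (22.6, 21.2 and 24.9 to 28.7, 29.7 and 31.0 CPM) and was called in neither other line. Of the 25 MM330 calls, 13 were ended by at least 1 alternative or left-out library: HSPA4, HSPA13, HSPA14, HSP90AB1, TRAP1, DNAJA3, DNAJB1, DNAJC7, CCT2, CCT3, CCT4, BAG3 and STUB1. Only 15 members were called in the low-pseudogene libraries.

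Set against siNT rather than siNT_E2, the median member with siER was near the hormone-free level in every line. Many members were still called above that level in MM134. In MM134, 19 members were higher and 2 lower than siNT (32.3% of all genes called, 17.2% higher and 15.2% lower), with a median of 0.06. MM330 had 7 and 3 (20.2%, 8.66% and 11.5%) and a median of 0.03, and HCC1428 had 6 and 3 (21.2%, 11.7% and 9.5%) and a median of 0.01. The members furthest above siNT were HSPA4L in MM134, at 22.4, 25.7 and 22.4 CPM against 14.2, 14.3 and 14.9 (log2 fold change 0.70), and FKBP5 in HCC1428 (0.78). HSPB1 and HSPA1A were 0.43 above siNT in MM134. Leaving out siNT replicate 2 lowered the MM330 count from 10 to 6, and leaving out siER_E2 replicate 3 lowered the HCC1428 count from 9 to 4.

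**Figure D5:**
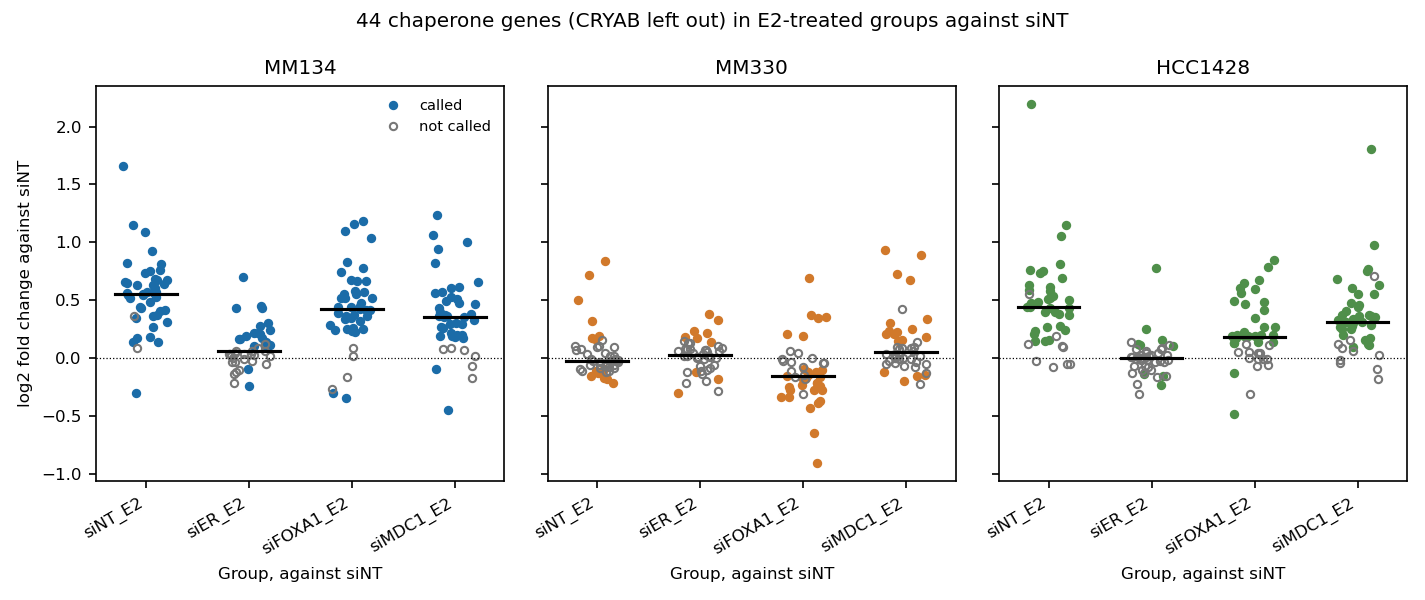
Log2 fold change of each E2-treated group against the hormone-free siNT group for 44 members (CRYAB left out), by line, with filled points for members called, open points for the others and a bar at the median. The siER medians lie at 0.06 or less in every line, while the siFOXA1 and siMDC1 medians of MM134 are 0.42 and 0.36.

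Knockdown of FOXA1 lowered the immunophilins in all lines and raised a smaller set. Against siNT_E2, 8 members rose and 27 fell in MM134 (56.3% of all genes called, 27.9% higher and 28.5% lower), 7 rose and 22 fell in MM330 (49.0%, 24.4% and 24.6%), and 5 rose and 29 fell in HCC1428 (53.6%, 24.1% and 29.5%). The medians were -0.12, -0.12 and -0.26. The siFOXA1 effect was called higher in MM134 than in HCC1428 for 16 members and lower for 6 (30.5%, 16.8% and 13.7%), higher than in MM330 for 11 and lower for 4 (29.1%, 15.3% and 13.8%), and higher in MM330 than in HCC1428 for 9 and lower for 3 (22.2%, 11.8% and 10.4%). FKBP5 stood at 15.7, 19.4 and 17.0 CPM in MM134, 9.98, 5.33 and 7.20 in MM330 and 23.8, 23.9 and 24.4 in HCC1428. It fell by 1.02, 1.62 and 1.41, and in both lobular lines every siFOXA1 library was below every siNT library. FKBP4 fell by 0.82, 0.63 and 0.54, to 780, 785 and 807 CPM in MM134, 428, 396 and 431 in MM330 and 1624, 1643 and 1578 in HCC1428; all of these lay above siNT.

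HSPA14, a ribosome-associated HSP70, fell in all 3 lines below its hormone-free level. Its siFOXA1 libraries were at 41.3, 38.0 and 41.2 CPM in MM134, 35.1, 38.8 and 37.7 in MM330, and 53.4, 54.7 and 55.6 in HCC1428. The siNT libraries were at 52.0, 46.5 and 50.5, at 58.5, 57.3 and 59.2, and at 73.5, 75.3 and 80.5. Against siNT_E2 the log2 fold changes were -0.44, -0.83 (edgeR adjusted p = 4.41e-10) and -0.59, and against siNT -0.30, -0.65 and -0.49, all called. The E2 log2 fold changes of HSPA14 were 0.14, 0.19 and 0.10, the last not called. The call in MM134 ended without siNT replicate 2 (adjusted p = 0.156) or siNT_E2 replicate 1 (0.0735) or 3 (0.051), and the one in MM330 in the low-pseudogene libraries (0.152).

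ST13, HSPA1A and HSPA1B were the members that siFOXA1 raised in all 3 lines. ST13 went from 298, 290 and 291 to 315, 349 and 342 CPM in MM134, from 155, 166 and 169 to 222, 228 and 218 in MM330, and from 156, 169 and 160 to 228, 229 and 238 in HCC1428. The groups did not overlap, and the log2 fold changes were 0.19, 0.45 and 0.52. HSPA1A rose by 0.50, 0.19 and 0.20, and the MM330 call ended without siFOXA1_E2 replicate 2 (edgeR adjusted p = 0.0703) or 3 (0.0725) or siNT_E2 replicate 1 (0.0765) or 3 (0.0712). HSP90AA1 rose in MM134 to 4862, 4998 and 4965 CPM (log2 fold change 0.46), above every other group of that line, and fell by 0.14 in HCC1428; the difference of 0.55 between these lines was called. HSPB1 rose in HCC1428 to 2947, 2948 and 2950 CPM (0.60) and in MM330 to 2481, 2535 and 2553 (0.18), and was not called in MM134.

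CRYAB, the small heat shock protein of muscle and lens, was near 0 in most libraries. In HCC1428 it stood at 1.51, 1.98 and 1.28 CPM with siNT_E2 and 8.77, 6.13 and 6.07 with siFOXA1, a log2 fold change of 2.15 (edgeR adjusted p = 8.03e-08). In MM330 it went from 0.0673, 0.0340 and 0.102 to 1.18, 0.533 and 0.631 CPM, all from few reads. It did not pass the filter on low counts in MM134, where it was at 0.147 CPM or less. HSPB2 and the read-through gene HSPB2-C11orf52 on the other strand overlapped 20.6% of its exons.

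Against siNT, siFOXA1 libraries in MM134 had 38 members higher and 2 lower (56.8% of all genes called, 28.9% higher and 27.9% lower) and those in HCC1428 had 29 higher and 2 lower (48.5%, 25.1% and 23.4%). In MM330 they had 7 higher and 24 lower (46.9%, 23.1% and 23.8%). The medians were 0.42, 0.19 and -0.15 in MM134, HCC1428 and MM330. In a direct comparison with siER, 37 members were higher and 4 lower with siFOXA1 in MM134 (51.3% of all genes called, 25.8% higher and 25.4% lower), 29 and 1 in HCC1428 (42.9%, 21.3% and 21.6%), and 4 and 28 in MM330 (45.9%, 23.1% and 22.9%). In MM134, siFOXA1 left ESR1 2.29 log2 units lower than siNT_E2, and its part in these values was not tested.

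With siMDC1, 5 members rose and 28 fell in MM134 (50.3% of all genes called, 25.4% higher and 25.0% lower), 15 rose and 1 fell in MM330 (20.8%, 10.4% in each direction), and 3 rose and 18 fell in HCC1428 (29.1%, 13.2% and 15.9%), against siNT_E2. The medians were -0.21, 0.07 and -0.11. The siMDC1 effect was called lower in MM134 than in MM330 for 29 members and higher for none (20.8% of all genes called, 9.71% lower), lower than in HCC1428 for 14 and higher for 2 (18.6%, 7.69% and 10.9%), and higher in MM330 than in HCC1428 for 21 and lower for none (13.8%, 7.48% higher). FKBP4 fell by 0.71 in MM134 (838, 851 and 869 CPM; edgeR adjusted p = 7.27e-14) and by 0.40 in HCC1428 (1789, 1775 and 1789; adjusted p = 1.89e-07), and stood at 703, 701 and 680 CPM in MM330 (0.10, adjusted p = 0.101). The difference of -0.81 between MM134 and MM330 was called. FKBP5 fell in HCC1428 only as far as 44.7, 51.4 and 50.5 CPM (log2 fold change -0.39), well above siNT, and the log2 change was -0.07 in MM134 and 0.18 in MM330, neither called. ESR1 was lower with siMDC1 by 2.16 in MM134, 0.96 in MM330 and 0.12 in HCC1428, and its part in these values was not tested.

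The TRiC subunits fell together with siMDC1 in 2 lines. All 8 fell in MM134 (median -0.41) and 7 in HCC1428 (median -0.23), and in MM330 none fell and CCT3 rose. CCT4 went from 274, 281 and 274 to 171, 176 and 184 CPM in MM134 (log2 fold change -0.64) and from 167, 183 and 181 to 135, 133 and 142 in HCC1428 (-0.37). In MM134 its siMDC1 libraries overlapped siNT, at 198, 186 and 182 CPM, although CCT4 was called lower than siNT there. In MM330 CCT4 stood at 178, 192 and 199 with siNT_E2 and 197, 181 and 187 with siMDC1, which overlapped. The CCT3 call in MM330 ended without any of the 3 siMDC1_E2 libraries (edgeR adjusted p = 0.0829, 0.0519 and 0.125) and without siNT_E2 replicate 1 (0.13) or 3 (0.0827), and in the low-pseudogene libraries (0.346). The CCT8 call in HCC1428 ended without siNT_E2 replicate 4 (0.0555).

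DNAJB6 and HSPA1A were the 2 members that siMDC1 raised in all 3 lines, and HSPA14 the 1 that it lowered in all. Of the 14933 genes tested in every line, 4.27% were called higher and 4.29% lower in all 3 with siMDC1. The counts of 2 and 1 therefore do not set the members apart. DNAJB6 went from 93.7, 89.7 and 93.2 to 114, 113 and 113 CPM in MM134 (log2 fold change 0.30), from 22.6, 21.2 and 24.9 to 28.4, 29.8 and 29.3 in MM330 (0.35), and from 82.0, 90.6 and 91.8 to 102, 100 and 96.0 in HCC1428 (0.18). The siMDC1 libraries were all above siNT_E2, but the HCC1428 call ended without siMDC1_E2 replicate 1 (edgeR adjusted p = 0.121) or 2 (0.083) or siNT_E2 replicate 2 (0.157). HSPA1A rose by 0.17, 0.44 and 0.19. Its HCC1428 call ended without siNT_E2 replicate 2 (0.0702) and with the counts of HSPA1A and HSPA1B summed (0.0971). HSPA1B alone was not called there. HSPA14 fell by 0.20, 0.23 and 0.20; the HCC1428 call ended without siNT_E2 replicate 4 (0.0521) and the MM330 call in the low-pseudogene libraries (0.0608). BAG2, a nucleotide exchange factor that inhibits STUB1, rose in MM134 from 3.03, 3.23 and 3.45 to 5.11, 6.64 and 5.98 CPM (0.87), at a low level; RAB23 and ZNF451-AS1 on the other strand together overlapped 44.2% of its exons.

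Of the 15 members that rose with siMDC1 in MM330, HSP90AA1 rose by 0.23 (to 9833, 9235 and 9410 CPM), HSP90AB1 by 0.17, HSPB1 by 0.23 and DNAJB1 by 0.33. That count of 16 calls was the least stable of the siMDC1 comparisons: it was 10 without siMDC1_E2 replicate 2 or siNT_E2 replicate 1, and 10 in the low-pseudogene libraries. The calls that at least 1 alternative or left-out library ended were HSPA9, TRAP1, CCT3, BAG2, HSF1, ST13 and HSPA14. Against siNT, siMDC1 left 36 members higher and 2 lower in MM134 (49.1% of all genes called, 26.0% higher and 23.2% lower), 34 and none in HCC1428 (48.4%, 26.2% and 22.2%) and 14 and 4 in MM330 (34.9%, 17.9% and 17.1%). The siMDC1 libraries stood above the siER libraries for 33 members in MM134 and below for 1 (45.6%, 24.1% and 21.5%), for 35 and none in HCC1428 (41.1%, 23.7% and 17.4%), and for 11 and 3 in MM330 (30.6%, 16.9% and 13.7%). Against siFOXA1, 8 were higher and 23 lower in MM134 (49.8%, 25.3% and 24.4%), 27 and 3 in MM330 (48.8%, 24.3% and 24.5%), and 22 and 4 in HCC1428 (45.4%, 25.6% and 19.7%).

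Across the lines, 6 members rose with E2 in all 3 (FKBP4, FKBP5, HSPB1, HSPA4L, TRAP1 and CCT5) and none fell in all 3. Of the 14933 genes tested in every line, 8.36% rose and 6.56% fell in all 3. With siER 9 members fell in all 3, against 10.3% of all genes: FKBP4, FKBP5, PTGES3, HSPB1, HSPA13, TRAP1, CCT2, CCT5 and BAG3. The MM330 calls of HSPA13, TRAP1, CCT2 and BAG3 among these ended without at least 1 library: siER_E2 replicate 1 for HSPA13 (edgeR adjusted p = 0.0635), CCT2 (0.183) and BAG3 (0.0747), siER_E2 replicate 2 for TRAP1 (0.0707), siER_E2 replicate 3 for TRAP1 (0.0651) and CCT2 (0.0516), siNT_E2 replicate 2 for TRAP1 (0.113) and CCT2 (0.0506), and siNT_E2 replicate 3 for HSPA13 (0.101), CCT2 (0.195) and BAG3 (0.0631). With siFOXA1 15 fell in all 3, against 14.5% of all genes, and 3 rose, against 10.6%. The 15 were HSPA8, HSPA14, HSPA4, TRAP1, HSPD1, DNAJA1, CCT2, CCT5, CCT6A, FKBP4, FKBP5, STIP1, AHSA1, CDC37 and HSF2. The HSF2 call was ended by leaving out at least 1 library in each line, and in HCC1428 by DESeq2 as well (adjusted p = 0.0606). The same held for AHSA1 in MM330 (0.133 without siNT_E2 replicate 2), TRAP1 in MM134 (0.113 without siFOXA1_E2 replicate 1), and CDC37 and HSPA4 in HCC1428 (0.116 without siNT_E2 replicate 3 and 0.151 without replicate 4). CRYAB and BAG2 were called in no line with E2. The members called higher with E2 in one line and lower in another were HSPA1A, HSPA1B, HSPA8, HSPA4, HSP90AB1, HSPA9 and CCT3, all of them lower in MM330. Among all genes tested in every line, 8.42% were called in both directions with E2 and 9.11% with siER, beside these 7 members and the 13 with siER.

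Related genes were read beside the members. Of all genes, 27.2% rose and 27.2% fell with E2 in MM134, 13.7% and 12.6% in MM330, and 29.1% and 25.7% in HCC1428. With E2, 14 of 16 endoplasmic reticulum chaperones rose and 2 fell in MM134, 8 and 1 in MM330, and 12 and 2 in HCC1428. HSPA5, the HSP70 of that compartment, rose by 1.13, 0.23 and 0.20. Of 6 prefoldin subunits, which hand actin and tubulin to TRiC, 3 rose in MM134, none in MM330 and 2 in HCC1428, where PFDN4 fell. Among other cytosolic chaperones and cochaperones, 18 of 31 rose and 2 fell in MM134, 3 and 2 in MM330, and 15 of 30 and 4 in HCC1428. The HSP90 cochaperone PPID rose by 0.64 in MM134 and PPP5C by 0.27 in MM134 and 0.57 in HCC1428. Mitochondrial import and proteolysis genes gave 5 of 10 higher in MM134, none in MM330 and 6 in HCC1428. With siER, 12 of the 16 endoplasmic reticulum chaperones fell in MM134, 4 in MM330 and 5 in HCC1428. The shares of all genes called lower were 27.9%, 17.4% and 28.7% in the same order. With siMDC1 the prefoldin subunits fell for 5 of 6 in MM134 and 2 in each other line. Among all genes 25.0% were called lower in MM134, 10.4% in MM330 and 15.9% in HCC1428.

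KLF9 and TSC22D3, textbook glucocorticoid receptor targets, fell with E2 in all 3 lines, TSC22D3 by 0.77, 0.34 and 1.01, while FKBP5 rose. SGK1, another such target, rose with FKBP5 in MM134 (2.06) and MM330 (3.09) and was not called in HCC1428, where it was at 0.403 CPM or less without E2. The progesterone receptor gene PGR rose by 0.74 in HCC1428 and 3.90 in MM330. With siFOXA1, KLF9 and NR3C1 rose in all 3 lines while FKBP5 fell. TSC22D3 fell with siFOXA1 in MM134 (-0.70) and MM330 (-0.65) and rose in HCC1428 (0.16), and SGK1 fell in MM134 (-1.29), rose in MM330 (1.35) and was not called in HCC1428.

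Some values carry counting limits. HSPA1A and HSPA1B are near-identical neighbours, and reads could have been split between them; 36.5% of HSPA1B exon sequence was also shared with AL671762.1. HSPE1 had 262 to 751 counts per library beside 6859 to 22695 for HSPD1, and it shares exons with the read-through gene HSPE1-MOB4, so its level is uncertain. The annotation has 2 overlapping genes named HSPA14, which the count table gives as 1 symbol, so its values and its exon length are uncertain too. On the other strand, DNASE1 overlapped 29.3% of TRAP1 exon sequence and JMJD8 42.4% of that of STUB1; with the strand setting of the counting not given, reads from these pairs cannot be told apart. In all, 105 processed pseudogenes matched 17 members and held 0.0488 to 0.145% of the members' counts in the 34 low-pseudogene libraries and 0.252 to 0.452% in the others. For HSPE1 the copies reached 25.9% of its own count in a higher library.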

How the data were processed

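Poly(A) RNA from 45 libraries (15 groups of 3) was prepared with a stranded kit and read as 2 reads of 150 bases per fragment, per the labels' protocols. The authors deposited 1 table of raw counts per gene symbol; STAR 2.6.0a, limma and builds hg38 and GRCh38 are named in the submitters' processing notes, and the counter, its annotation and its strand setting are not given in the sources used here. Of the 57353 symbols, 16974 had no count and 27 looked like dates, as a spreadsheet writes them.

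The deposited counts were filtered with filterByExpr, scaled by TMM and tested with edgeR 4.0.16 (quasi-likelihood test, Benjamini-Hochberg adjustment over all genes tested, threshold 0.05, R 4.3.3) in 1 fit per line over its 5 groups; differences between lines and levels set across lines came from 1 fit of all 45 libraries. CPM used the TMM-scaled totals within a line. Exon lengths, coordinates and pseudogenes came from GENCODE 29 and promoter windows from RefSeq. The procedure was tested on simulated data.

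The samples were grouped by the labels. The label of siNT calls it untreated, while the protocol gives vehicle (0.01% ethanol). Replicate numbers were checked as pairs: same-numbered libraries deviated together with a median correlation of 0.00705, -0.00095 and -0.0084 in MM134, MM330 and HCC1428, and no block was used. Reads carry no molecular identifiers, so the totals limit counting error only. The members, gene lists and tests were chosen with earlier results of these data known. Any member could be named, with full values for the cochaperones and for at most 6 called members with the largest changes in each direction at 10 CPM or more. BAG2, CRYAB, DNAJB4 and the members that went both ways were singled out after their values were seen. Alternatives were RLE scaling, no filter, DESeq2 1.42.0, limma-voom (3.58.1), a replicate block, fits of the compared libraries only, HSPA1A and HSPA1B summed, leaving out each library, and, added after seeing the data, the 34 libraries with the lower pseudogene share. One gene of the list of steroid-responsive genes is not reported here.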

Additional observations from a re-analysis of the deposited data

Results flagged for a closer look

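The values here are differences on the log2 scale between the effects of 1 treatment in 2 lines, for members that were called in opposite directions in those lines and whose difference was itself called (edgeR's quasi-likelihood test over 45 libraries, Benjamini-Hochberg adjustment; the largest adjusted p was 0.00039, for HSPB1 with siMDC1). Groups of 3 libraries were too small to look for single outlying libraries. Some of the single-line calls behind these differences were ended by at least 1 alternative or left-out library. In MM330 these were HSPA1A, HSPA4, HSPA8, HSP90AB1 and CCT3 for E2, HSPA4, HSP90AB1, DNAJA3, DNAJB1, DNAJC7, CCT3, CCT4 and STUB1 for siER, and HSPA9, TRAP1 and CCT3 for siMDC1. In MM134 they were BAG3 for siFOXA1 and HSPB1 for siMDC1.

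For the E2 effect, MM134 exceeded MM330 for HSPA1A (0.90), HSPA1B (0.81), HSPA8 (0.81), HSPA9 (0.62), HSPA4 (0.57), CCT3 (0.72) and HSP90AB1 (0.63). MM330 lay below HCC1428 for HSPA8 (-0.91), HSPA1A (-0.66), HSP90AB1 (-0.59), CCT3 (-0.53), HSPA4 (-0.47) and HSPA9 (-0.42). These 7 genes include 4 HSP70 or mitochondrial HSP70 genes, and each rose with E2 in MM134 and fell in MM330.

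For the siER effect, MM134 lay below MM330 for the HSP70 and HSP110 genes HSPA1A (-0.70), HSPA1B (-0.69), HSPA9 (-0.70) and HSPA4 (-0.53), and for HSP90AA1 (-0.59) and HSP90AB1 (-0.41). The same direction was seen for the J-domain genes DNAJA3 (-0.54), DNAJC7 (-0.47) and DNAJB1 (-0.43), for CCT4 (-0.76) and CCT3 (-0.62), and for AHSA1 (-0.70) and STUB1 (-0.33). MM330 exceeded HCC1428 for HSPA1A (0.73), HSPA4 (0.47), HSPA9 (0.42), HSP90AA1 (0.77), HSP90AB1 (0.52), DNAJB1 (0.43), DNAJC7 (0.36), CCT4 (0.57), CCT3 (0.49), AHSA1 (0.55) and STUB1 (0.43).

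For the siFOXA1 effect, MM134 exceeded HCC1428 for HSP90AA1 (0.55) and STUB1 (0.44), and lay below MM330 for DNAJB6 (-0.61) and BAG3 (-0.35). BAG3 was also higher in MM330 than in HCC1428 (0.46). For the siMDC1 effect, MM134 lay below MM330 for TRAP1 (-0.43), AHSA1 (-0.38), CCT3 (-0.33), HSPA9 (-0.31) and HSPB1 (-0.31).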

How the results depend on the processing

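No member called in a main comparison or in a difference between lines changed direction under any alternative run. Members not called were not checked for direction, and counts were compared by their totals only. DESeq2, RLE scaling, limma-voom and the replicate block left all 45 counts of called members within 1.5 times their value; with the replicate block 42 members were called for E2 in MM134. Replicate numbers did not pair the libraries: 1 of 30 same-numbered pairs in MM134, 8 of 30 in MM330 and 4 of 26 in HCC1428 correlated above 0.1. Differently numbered pairs did so too, 4 of 60 in MM134, 22 of 60 in MM330 and 9 of 64 in HCC1428. The largest correlations in these lines, 0.7432, 0.746 and 0.7125, each joined 2 libraries on the same side of the pseudogene split. That split was not a term in any fit. In HCC1428 its higher side held 2 siNT, 2 siER_E2 and 1 siNT_E2 library, and none with siFOXA1 or siMDC1. Under the replicate block, of 536 single-member results in the main comparisons, called or not, 12 lost and 2 gained a call. In the 34 low-pseudogene libraries, chosen after seeing the data, the counts fell to 8 for E2, 15 for siER, 5 for siER against siNT and 10 for siMDC1 in MM330, to 3 for siER against siNT in HCC1428, and to 7 for the siER difference between MM134 and HCC1428; without the filter on low counts the last was 8. Leaving out single libraries gave 6 to 11 for siER against siNT and 10 to 14 for siMDC1 in MM330, 4 to 9 for siER against siNT in HCC1428 (4 without siER_E2 replicate 3, 5 without siNT replicate 2), and 9 to 14 for the siFOXA1 difference between MM134 and MM330 (9 without MM134 siNT_E2 replicate 3). The low-pseudogene alternative uses fewer libraries, and whether more than that moved its counts was not tested. E2 counts ranged over 40 to 42 in MM134, 33 to 37 in HCC1428 and 10 to 13 in MM330. Of 3216 single-member results with 1 library left out, 161 lost and 32 gained a call. Depth limits CRYAB and BAG2 most, at a few CPM or less. Not tested: strand and multi-mapping settings of the deposited counts.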
